A study of Coccomyxa subellipsoidea C-169 with 6 samples.

Results

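The transcripts described here are those of RuBisCO (gene '65708') and of 5 further enzymes of the Calvin cycle, phosphoglycerate kinase (PGK, '53354'), glyceraldehyde-3-phosphate dehydrogenase (GAPDH, '26453'), triose-phosphate isomerase (TPI, '30774'), the chloroplast fructose-bisphosphate aldolase ('34109') and the chloroplast fructose-1,6-bisphosphatase (FBP, '27479'). The 6 genes were taken by identifier from the deposited table of 9409 genes, and all 6 were among the 8637 genes that passed the filter on low counts. Their enzyme names are those of the published description. They were measured in the single-celled green alga Coccomyxa subellipsoidea, strain C-169, grown autotrophically in flasks under continuous light. Cultures received ambient air with 0.04% CO2 (v/v; termed AG) or air enriched to 2% CO2 (termed CG), and cells were harvested on day 4. Each group had 3 libraries, AG 1 to AG 3 and CG 1 to CG 3, which the study calls biological replicates. All cells were the same unmodified strain and came from a pre-culture at ambient CO2.

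RNA was measured by digital gene expression (DGE) analysis, in which short reads from poly(A) RNA were counted per transcript. The libraries held 3825993 to 4969639 counts in AG and 2674507 to 3740989 in CG. Levels are given as CPM, counts per 1000000 of a library total that was first adjusted by edgeR's scaling factor (TMM). They are also given as RPKM, counts per 1000000 of the unadjusted total and per kilobase of transcript. Only RPKM was used to compare one gene with another. The group comparison was made with edgeR's quasi-likelihood test over all 8637 genes, and "rose" or "fell" means an adjusted p under 0.05. Library CG 1 stood apart from CG 2 and CG 3 for these genes, so the comparisons of the 6 genes are given with and without it. A CPM value is relative to the other RNA in a library, so more RNA of one kind per cell and less of the others cannot be told apart.

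The Calvin cycle is the pathway by which chloroplasts turn CO2 into sugar phosphates. RuBisCO joins CO2 to ribulose-1,5-bisphosphate and gives 3-phosphoglycerate. PGK phosphorylates that product with ATP, GAPDH reduces it to glyceraldehyde-3-phosphate, TPI interconverts the triose phosphates, aldolase joins them to fructose-1,6-bisphosphate and FBP removes a phosphate to give fructose-6-phosphate, from which the CO2 acceptor is rebuilt or starch is made. RuBisCO is usually among the most abundant proteins of a photosynthetic cell, and many algae in low CO2 run a mechanism that concentrates CO2 around it. In green algae the large subunit of RuBisCO is encoded in the chloroplast and the small subunit in the nucleus. The sources do not name the subunit that the RuBisCO gene here encodes. The paper states, for the photosystems, that components encoded by the chloroplast genome escape its transcriptome. By that limit the gene counted here would be that of the nuclear small subunit. The deposited counts and RPKM values imply a transcript length of 936 nt for it, against 1556 to 2060 nt for the other 5. PGK, GAPDH and TPI also have counterparts in glycolysis, and the sources name a compartment only for the aldolase and FBP.

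The transcripts of GAPDH, PGK, TPI and aldolase rose in CG, GAPDH 20.04-fold and the other 3 by 3.22- to 3.58-fold. Those of RuBisCO and FBP did not pass the test over all libraries. RuBisCO was 1.20-fold and FBP 1.48-fold higher in CG by estimate. Of the 6 genes 4 rose, beside 27.3% of all genes tested. From these same libraries the paper had already reported PGK, GAPDH and this aldolase as upregulated. It found no significant upregulation of RuBisCO and no significant change of this FBP. The genes were chosen with earlier results known, so the counts of members are no independent result. The same 4 met stricter criteria, a log2 fold change above 1 with an adjusted p under 0.001, beside 7.95% of all genes on the higher side. Without CG 1 all 6 rose, beside 34% of the 8720 genes then tested. The 4 that rose over all libraries also did so with any 1 library left out. Fewer of them then met the stricter criteria: only GAPDH when any AG library was dropped, 2 when CG 2 was and 3 when CG 3 was. All 4 met them when CG 1 was dropped. The number over all genes, in either direction, moved the same way. It was 1171 with all libraries, 240 to 285 after dropping an AG library, 368 for CG 2, 559 for CG 3 and 2557 for CG 1. Across these fits the log2 fold change stayed at 1.75 to 1.93 for PGK and 4.20 to 4.51 for GAPDH. It stayed at 1.62 to 1.80 for TPI and 1.73 to 1.99 for aldolase. The lower member counts are therefore not particular to these genes.

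**Figure D1:**
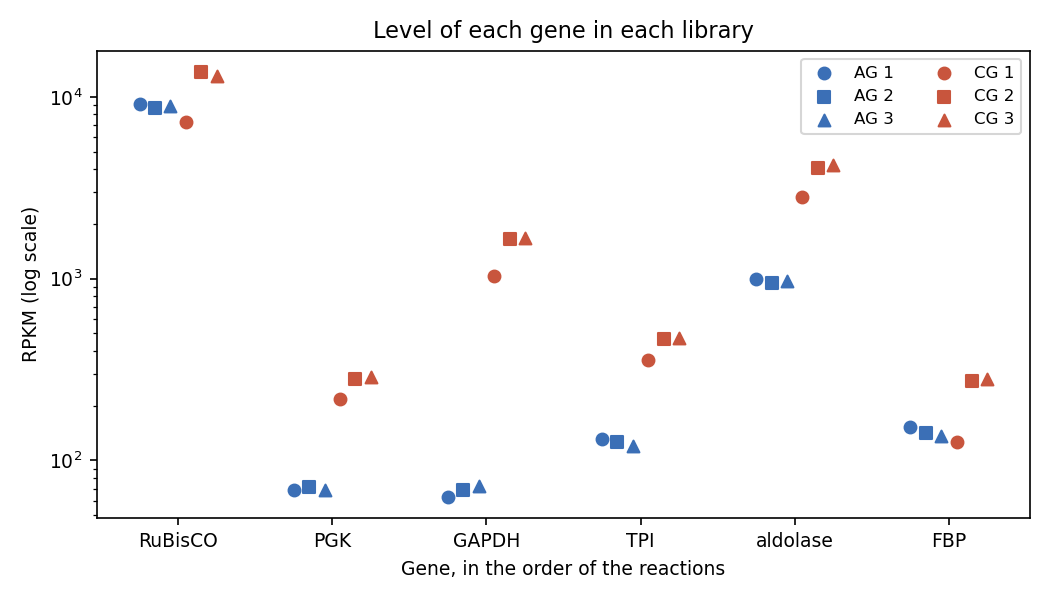
RPKM (log scale) of the 6 genes in each of the 6 libraries, with the AG libraries in blue and the CG libraries in red; each point is 1 library. The CG points lie above all AG points for PGK, GAPDH, TPI and aldolase, whereas CG 1 lies below the AG points for RuBisCO and FBP.

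The RuBisCO gene, which encodes a subunit of the carboxylating enzyme, had the highest level of the 6 in every library. Its transcript was at 8932, 8186 and 8634 CPM in AG 1 to AG 3 and at 6693, 12370 and 11873 CPM in CG 1 to CG 3. The groups overlapped, because CG 1 lay below all 3 AG libraries while CG 2 and CG 3 lay above them. By RPKM it ranked 3, 4 and 3 among all genes in AG and 2, 1 and 1 in CG, so even in CG 1, where its own level was lowest, only 1 gene was above it. The log2 fold change was 0.26 ± 0.28 (SE), with a 95% interval from -0.40 to 0.93 and an adjusted p of 0.461 in edgeR's quasi-likelihood test. Without CG 1 it was 0.49, with a 95% interval from 0.29 to 0.70 and an adjusted p of 0.000334. Whether RuBisCO counts as higher in CG therefore turned on that library, and in either fit the upper end of the interval stayed under a 2-fold rise, that is a log2 fold change of 1.

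PGK, an enzyme that in the cycle uses ATP in the first step after carboxylation, had one of the lowest levels of the 6 in AG. It was at 111, 113 and 112 CPM in AG 1 to AG 3 and at 334, 420 and 434 CPM in CG 1 to CG 3. The groups did not overlap, and the AG libraries differed by less than counting error alone would give (coefficient of variation, CV, 0.802% against 4.65%). PGK rose with a log2 fold change of 1.82 ± 0.14 (SE; 95% interval 1.49 to 2.16; adjusted p = 9.79e-05 in edgeR's quasi-likelihood test). Without CG 1 the log2 fold change was 1.93.

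GAPDH, an enzyme that in the cycle spends reducing power on the PGK product, changed most. It was at 107, 113 and 122 CPM in AG and at 1641, 2569 and 2634 CPM in CG. The groups did not overlap, and the lowest CG library was far above the highest AG library. The log2 fold change was 4.32 ± 0.25 (SE; 95% interval 3.73 to 4.92; adjusted p = 3.76e-05 in edgeR's quasi-likelihood test), and 68 of the 8637 genes had a larger one. Its RPKM rank among all genes went from 2516, 2299 and 2163 in AG to 60, 16 and 17 in CG. Without CG 1 the log2 fold change was 4.51.

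TPI, the isomerase that keeps both triose phosphates available, was at 283, 262 and 258 CPM in AG and at 723, 922 and 941 CPM in CG. The groups did not overlap, with CG 1 again the lowest of the CG libraries. TPI rose with a log2 fold change of 1.69 ± 0.16 (SE; 95% interval 1.31 to 2.07; adjusted p = 0.000221 in edgeR's quasi-likelihood test). Without CG 1 it was 1.80.

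The chloroplast aldolase, which condenses the triose phosphates, was the second most abundant of the 6 transcripts per length in every library. It was at 1964, 1827 and 1928 CPM in AG and at 5276, 7422 and 7752 CPM in CG. The groups did not overlap, and its RPKM rank among all genes went from 93, 94 and 97 to 8, 3 and 3. Aldolase rose with a log2 fold change of 1.84 ± 0.22 (SE; 95% interval 1.32 to 2.36; adjusted p = 0.000568 in edgeR's quasi-likelihood test), or 1.99 without CG 1.

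FBP, the phosphatase that commits fructose-1,6-bisphosphate to regeneration or starch, followed RuBisCO rather than aldolase in which libraries were high. It was at 291, 262 and 259 CPM in AG 1 to AG 3 and at 226, 481 and 496 CPM in CG 1 to CG 3. As for RuBisCO, CG 1 was below every AG library and CG 2 and CG 3 were above. The log2 fold change was 0.57 ± 0.29 (SE), with a 95% interval from -0.12 to 1.26 and an adjusted p of 0.142 in edgeR's quasi-likelihood test. Without CG 1 it was 0.85 (95% interval 0.67 to 1.03), with an adjusted p of 9.24e-07. The intervals with all libraries do not exclude a 2-fold rise of FBP.

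**Figure D2:**
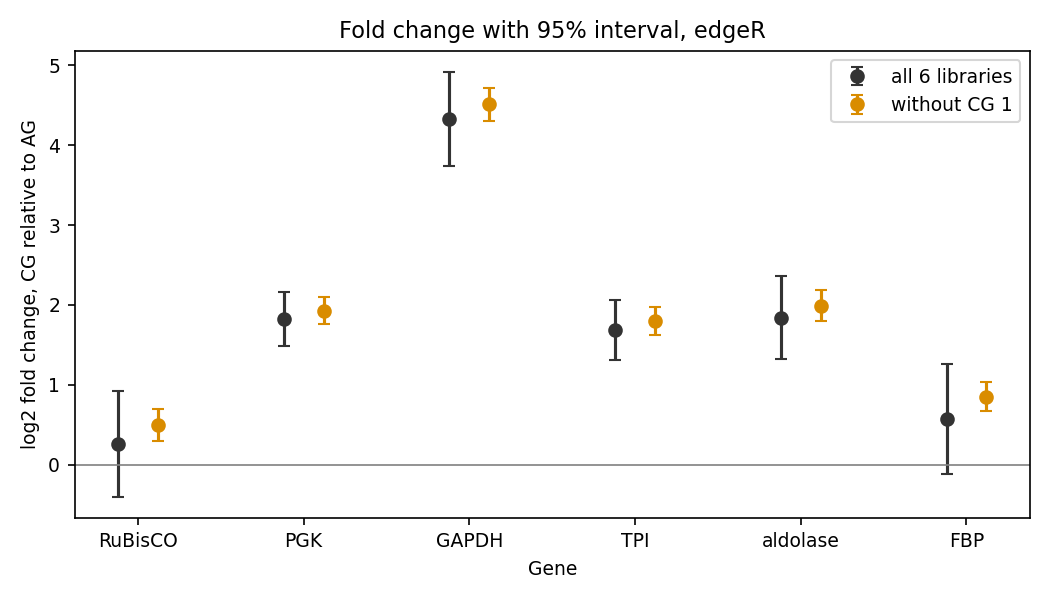
Log2 fold change of CG relative to AG for each gene, with 95% intervals from edgeR, over all 6 libraries (dark) and without CG 1 (orange); the grey line marks no change. The intervals of RuBisCO and FBP include 0 over all libraries and lie above 0 without CG 1, while those of the other 4 lie above 1 in both.

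The 6 genes, chosen with earlier results of these data known, thus fell into 3 sizes of response. GAPDH was highest, PGK, TPI and aldolase were close to each other, and RuBisCO and FBP were lowest. Whether the same holds for the steps of the cycle was not tested. The homologues of these genes were not analysed, and the sources name no compartment for PGK, GAPDH and TPI. The 95% intervals of PGK, TPI and aldolase overlapped each other, and none of them overlapped that of GAPDH. Of the 8637 genes, 552 had a larger log2 fold change than aldolase, 556 than PGK and 625 than TPI, against 2196 for FBP and 3174 for RuBisCO. The groups did not overlap, with all CG above all AG libraries, in 4 of the 6 genes, beside 31.5% of all genes. CG 2 and CG 3 were above every AG library in 6 of the 6, beside 39.5% of all genes.

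CG 1 was the lowest CG library for 6 of the 6 genes, beside 43.4% of the genes tested. Relative to the geometric mean of CG 2 and CG 3, CG 1 held 0.463 of the FBP level, 0.552 of RuBisCO, 0.631 of GAPDH, 0.696 of aldolase, 0.776 of TPI and 0.783 of PGK. Over all genes tested this ratio had a median of 1.003, with a 10th percentile of 0.581 and a 90th of 1.72, so that FBP and RuBisCO lay below the 10th percentile and the other 4 above it. On a scale where the AG mean is 0 and the mean of CG 2 and CG 3 is 1, in log2 CPM, CG 1 lay at 0.853 for GAPDH, 0.817 for PGK, 0.797 for TPI and 0.737 for aldolase, and at -0.30 for FBP and -0.72 for RuBisCO. The median of that position was 0.752 over 1446 genes that rose more than 2-fold without CG 1 and had counts in every library. RuBisCO and FBP were not among them, with 1.41- and 1.80-fold without CG 1. The position is divided by the difference of CG 2 and CG 3 from AG, so a small difference can give values far from 0 and 1. Of the 3414 genes with CG 2 and CG 3 above every AG library, 9.93% had CG 1 below every AG library, as RuBisCO and FBP did.

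**Figure D3:**
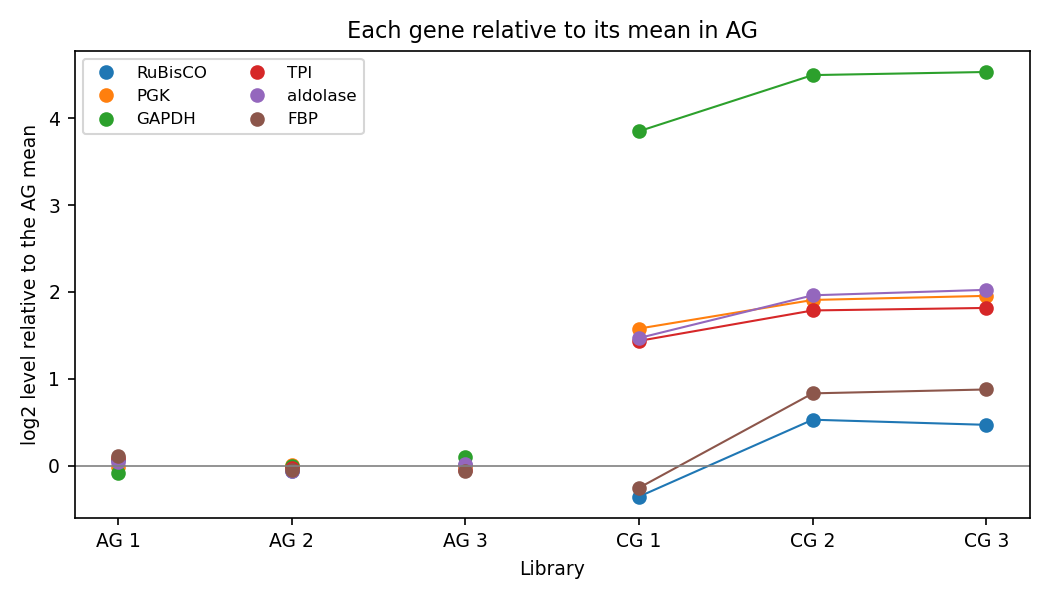
Log2 level of each gene in each library relative to its mean over the AG libraries (grey line at 0); each point is 1 library, and lines join the 3 CG libraries of a gene only to guide the eye. CG 1 is the lowest CG library for each gene, and it lies below 0 for RuBisCO and FBP only.

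Most of the spread within CG came with that library. The CV of the CPM values in CG was 37.8% for FBP, 30.5% for RuBisCO, 24.4% for GAPDH, 19.7% for aldolase, 14.0% for TPI and 13.6% for PGK (n = 3). Between CG 2 and CG 3 it was 1.42% to 3.08% for the 6 genes. In AG it was 0.802% to 6.61%. Counting error alone would give 0.550% to 2.82% in CG, from RuBisCO to PGK, and 0.531% to 4.65% in AG.

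The stoichiometry of the transcripts within a library needs no scaling between libraries. Per 1000 RPKM of RuBisCO, PGK was at 7.48, 8.29 and 7.80 in AG 1 to AG 3 and at 30.0, 20.4 and 22.0 in CG 1 to CG 3. GAPDH was at 6.90, 7.95 and 8.13 in AG and at 141, 120 and 128 in CG. For both the lowest CG library was above the highest AG library, with CG 1 the highest. TPI was at 14.4, 14.5 and 13.6 in AG and at 49.1 in CG 1 and a mean of 34.9 in CG 2 and CG 3. Aldolase was at 108, 110 and 110 in AG and at 387, 295 and 321 in CG. CG 1 was again the highest of the CG libraries for both, the reverse of its place in CPM, because RuBisCO was lower in CG 1 by a larger factor than these transcripts. FBP was at 16.7, 16.4 and 15.4 in AG and at 17.3, 19.9 and 21.4 in CG, with CG 1 the lowest of the CG libraries and just above AG 1.

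**Figure D4:**
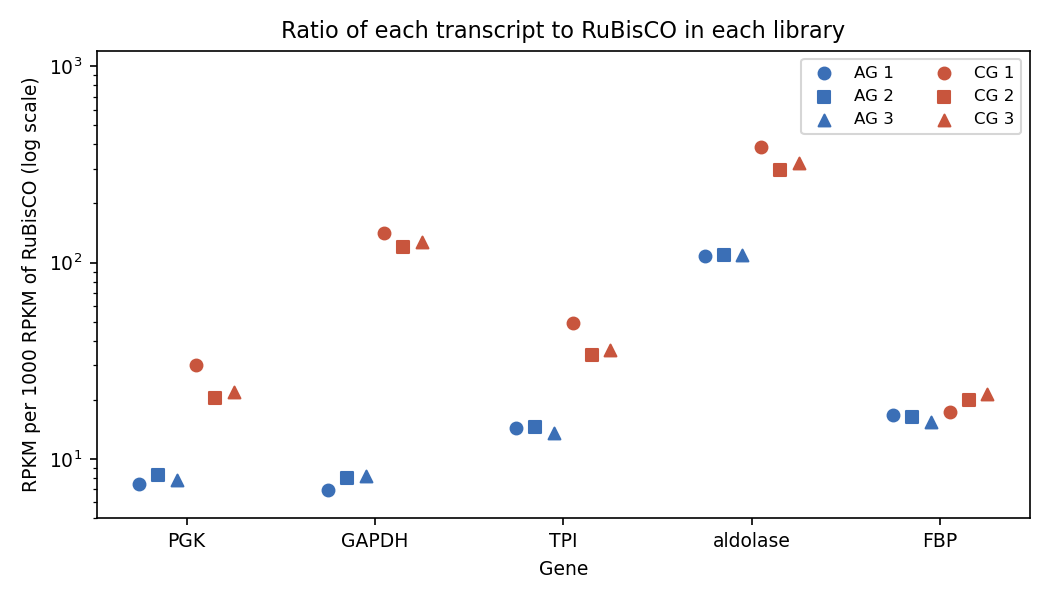
RPKM of 5 transcripts per 1000 RPKM of RuBisCO in the same library (log scale), with the AG libraries in blue and the CG libraries in red; each point is 1 library. The CG points lie above the AG points for each of the 5, by the widest gap for GAPDH and the narrowest for FBP.

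Relative to RuBisCO, GAPDH was 16.9-fold higher in CG than in AG, going from 7.66 ± 0.67 to 129.7 ± 10.9 per 1000 (SD, n = 3). Aldolase and PGK were both about 3-fold higher, with log2 differences of 1.61 and 1.60, and TPI followed with 1.47. Without CG 1 the ratios to RuBisCO were 16.2-fold higher for GAPDH, 2.82-fold for aldolase, 2.70-fold for PGK, 2.47-fold for TPI and 1.28-fold for FBP. The log2 difference of FBP was 0.27, from 16.1 ± 0.68 to 19.5 ± 2.07 per 1000 (SD, n = 3). The exact two-sided permutation test over the 6 libraries gave p = 0.1 for each of the 5 ratios, also after adjustment over them, which is the smallest p that 3 against 3 libraries allow, so no call at 0.05 was possible. These ratios share the RuBisCO value of each library and are not independent of each other. They are ratios of transcripts, not of enzymes.

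For enzymes named for consecutive steps of the cycle, the ratio of transcripts differed most between the groups where it involved the GAPDH gene. That the PGK, GAPDH and TPI genes here serve the cycle was not tested. The ratio of GAPDH to PGK went from 0.975 ± 0.062 in AG to 5.46 ± 0.66 in CG (RPKM ratio, SD, n = 3), and that of TPI to GAPDH from 1.86 ± 0.21 to 0.304 ± 0.038. Neither range overlapped between the groups, nor did those of PGK to RuBisCO, given above, and of FBP to aldolase. The ratio of aldolase to TPI was 7.72 ± 0.32 in AG and 8.50 ± 0.54 in CG, and its ranges, 7.51 to 8.09 and 7.89 to 8.91, overlapped. FBP per aldolase went from 0.148 ± 0.007 to 0.0596 ± 0.0130, lowest in CG 1. Over CG 2 and CG 3 alone the mean ratios were 5.84 for GAPDH to PGK, 0.282 for TPI to GAPDH, 8.81 for aldolase to TPI and 0.0671 for FBP to aldolase. Aldolase to TPI then no longer overlapped with AG, with both values between 8.70 and 8.91. These step ratios were chosen with the values already known and carry no test.

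The order of the 6 transcripts by RPKM changed with the CO2 level. In AG it was RuBisCO (8896 ± 259 RPKM, SD, n = 3), aldolase (971 ± 21), FBP (144 ± 9), TPI (126 ± 6), PGK (69.8 ± 1.7) and GAPDH (68.1 ± 4.5). Only the ranges of PGK and GAPDH overlapped among neighbours in that order. In CG it was RuBisCO (11361 ± 3541), aldolase (3687 ± 753), GAPDH (1449 ± 363), TPI (431 ± 64), PGK (262 ± 38) and FBP (226 ± 87), in which only PGK and FBP overlapped. Over CG 2 and CG 3 alone the order was the same, and these ranges met without overlapping (PGK from 280.027 and FBP up to 280.024 RPKM). GAPDH went from the last place to the third, FBP from the third to the last, and the top of the order stayed as it was.

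Together the 6 transcripts took 1.12%, 1.06% and 1.09% of the counts in AG 1 to AG 3 and 1.52%, 2.51% and 2.49% in CG 1 to CG 3. Without RuBisCO the other 5 took 0.255% to 0.265% in AG and 0.836%, 1.23% and 1.26% in CG. The groups did not overlap in either sum. RuBisCO made up 86.4% to 86.7% of the summed RPKM of the 6 in AG, and 61.5%, 67.2% and 65.4% in CG 1 to CG 3. GAPDH went from 0.598% to 0.705% of that sum in AG to 8.05% to 8.70% in CG.

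Product names were at hand for 216 genes only, most of them genes that the study itself called changed, so the rest of the pathway could not be counted without bias. Among them no gene carried the name of another enzyme of the cycle, of photorespiration or of carbon concentration, and the homologues of the 6 genes were not analysed here. A glucose-6-phosphate/phosphate translocator-related gene (56674), of a family that moves sugar phosphates across plastid membranes, was the 1 match in the list of starch synthesis and triose phosphate export. It was at 149, 195 and 168.9 CPM in AG and at 599, 832 and 801 CPM in CG, and rose with a log2 fold change of 2.12 (adjusted p = 0.000176, edgeR's quasi-likelihood test), or 2.25 without CG 1. Both matches in the list of RuBisCO assembly, 53616 and 65685, are alcohol dehydrogenases named for a GroES-like fold and not chaperonins, and are not described further.

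Other lists, chosen with values already known, held genes named for ferredoxin, its reductases and the oxidative pentose phosphate pathway. Whether they serve the cycle in these cells was not tested. The catalytic chain of ferredoxin-thioredoxin reductase (24815), which passes electrons from ferredoxin to the thioredoxins that in plants activate FBP and GAPDH, was at 172, 168 and 161 CPM in AG and at 92.1, 77.9 and 78.8 CPM in CG. It fell by 1.01 on the log2 scale (adjusted p = 0.000423, edgeR's quasi-likelihood test). A ferredoxin (31164), the electron carrier upstream, was at 40.2, 47.6 and 41.6 CPM in AG and at 1030, 1007 and 935 CPM in CG, and unlike the 6 enzymes it was highest in CG 1. Glucose-6-phosphate dehydrogenase (39093), which makes NADPH in the oxidative pentose phosphate pathway, was at 84.0, 78.7 and 77.0 CPM in AG and at 396, 453 and 521 CPM in CG. It rose, as did the ferredoxin. So did a gene named root FNR 2 (54553, mean 468 CPM in AG and 1444 CPM in CG, with fractional counts), which the paper calls a ferredoxin-NADP+ reductase. In the 6-phosphogluconate dehydrogenase family 1 gene rose (27305, 351 and 1783 CPM), whereas the other named gene (17252, 121 and 38.2 CPM) fell. These genes had names mostly because the study had called them changed, so the number called is no result. Each kept its direction without CG 1.

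The genes most like each of the 6 in pattern were found by the Euclidean distance between log2 CPM profiles over the 6 libraries, each centred on its AG mean, among 7802 genes with a mean of at least 10 CPM. Aldolase and PGK lay close to each other, with PGK the second nearest gene to aldolase and aldolase the third nearest to PGK, at a distance of 0.168. TPI was the 14th nearest gene to PGK and the 16th to aldolase. For GAPDH no other of the 6 was near, as PGK, TPI and aldolase lay at distances of 4.28 to 4.54, and the 3 nearest genes were 24967, 42456 and 64181 at 0.310 to 0.384. These rose by similar factors, with log2 fold changes of 4.34, 4.21 and 4.34.

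FBP and RuBisCO shared the sign of each CG library's deviation but were not nearest neighbours. FBP was the 280th nearest gene to RuBisCO and RuBisCO the 114th nearest to FBP, at a distance of 0.524. The nearest genes to RuBisCO were 67960, 32523 and 32079, at 0.111 to 0.150. The first of them, 67960, was at 59.1, 55.0 and 60.5 CPM in AG and at 44.0, 79.6 and 82.7 CPM in CG, with CG 1 below and CG 2 and CG 3 above AG. Those of FBP were 54338, 38677 and 24824, at 0.141 to 0.175. As these genes were picked for their profile over the same libraries, their own tests carry no further information. For PGK they were 52944, 65435 and aldolase, for aldolase 54090, PGK and 65435, and for TPI 28997, 45784 and 47597. Of these, 28997 is named as subunit D of the vacuolar proton-pumping ATPase and 47597 as a major facilitator superfamily protein, and the others carry no name in the sources used here.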

How the data were processed

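The DGE libraries came from poly(A) RNA, and the authors mapped single-end reads of 36 nt with Bowtie (version not given in the sources used here), allowing 1 mismatch, to the C-169 transcript set in Phytozome V10, taking sense and antisense hits together. The expected counts are used as deposited: the authors obtained them from this mapping, part of them are fractional, and those of the 6 genes are whole in every library. The RPKM values were computed by the authors from these counts. Reads of a gene and an antisense partner cannot be told apart, and near-identical copies could share reads. The table's columns of group means and of the authors' own comparison (fold change and FDR) were left out.

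After rounding, edgeR 4.0.16 under R 4.3.3 was applied to the counts (TMM, filterByExpr, robust quasi-likelihood fit, Benjamini-Hochberg adjustment over 8637 genes; common biological coefficient of variation 0.186), with SE and 95% intervals from the same fit; the script was tested on simulated data. Ratios to RuBisCO were compared with an exact permutation test. CPM divides by the library total of the genes that passed the filter, multiplied by the TMM factor, whereas RPKM and shares of counts use unadjusted totals. Alternatives were other scalings and filters, DESeq2 1.42.0, counts without rounding, log2(RPKM + 1) and log2(RPKM + 0.1) in limma 3.58.1, a replicate block, each library left out and scaling to the qRT-PCR reference gene. Spread and background without CG 1 and the step ratios were chosen after seeing the data. Python 3.11.15, pandas 2.3.3 and matplotlib 3.10.9 served for summaries and plots.

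The 6 genes, lists and tests were chosen with earlier results of these data known. Named besides the 6 were up to 6 genes per pathway list by mean CPM and the 3 nearest in profile to each. A planned comparison of each gene with its homologues was not run, since products are named for 216 genes only. Neighbouring genes came from the assembly Coccomyxa subellipsoidae v2.0, to which 9372 genes matched; that the Phytozome V10 transcripts rest on the same assembly is not stated, so no coordinates are shown.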

Additional observations from a re-analysis of the deposited data

How the results depend on the processing

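GAPDH, PGK, TPI and aldolase stayed higher in CG with an adjusted p under 0.05 in each of the 16 tested alternatives, with a highest adjusted p of 0.000879, 0.00185, 0.00325 and 0.00595. RuBisCO and FBP were called only without CG 1, which gave 0.49 (adjusted p = 0.000334) and 0.85 (adjusted p = 9.24e-07) in edgeR's quasi-likelihood test, the upper ends of leave-one-out ranges from 0.11 to 0.49 and from 0.38 to 0.85. In the other 15 tested alternatives their adjusted p was 0.330 to 0.810 and 0.1004 to 0.346. Scaling to the ribosomal protein L5 gene, the qRT-PCR reference, gave log2 fold changes of 0.86 for RuBisCO, 2.46 for PGK, 4.94 for GAPDH, 2.33 for TPI, 2.47 for aldolase and 1.13 for FBP, against 0.57 for FBP with TMM scaling, without a test. That gene itself was at 371, 300 and 354 CPM in AG and at 135, 258 and 293 CPM in CG. This scaling therefore raises the fold changes of all 6 genes by similar amounts. It also raises CG 1 more than CG 2 and CG 3, and CG 1 is the library in which RuBisCO and FBP lay below AG. Whether the groups still overlapped for RuBisCO and FBP under this scaling was not examined. Over all genes, 1171 met the stricter criteria, against 2061 in DESeq2, 329 with a replicate block and 240 to 2557 with 1 library left out. The highest of these, 2557, came from the fit without CG 1. Among the 6 genes 4 met them, against 1 with the block. Deviations of libraries with the same number correlated at -0.034, 0.038 and -0.051, so the numbers were not taken as pairs. The ratios to RuBisCO kept their direction in each of 9 alternatives, with log2 differences of 4.01 to 4.14 for GAPDH and 0.20 to 0.36 for FBP when 1 library was left out. Among these alternatives, the ratio of counts and the replicate block return the main value by construction. Counting error alone would give a CV of 0.550% for RuBisCO and 2.78% for FBP in CG, where the CV was 30.5% and 37.8%. No alternative varied depth.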

Other observations

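The 6 genes lie on 6 different scaffolds, so none adjoins another. Of the 12 genes next to them, none of which overlaps a member's span in the annotation, 7 rose, 2 fell and 4 were estimated above 2-fold higher in CG, beside 27.3%, 25% and 15.7% of all genes tested. Without CG 1, 7 rose and 3 fell, beside 34% and 34.2%. The count was not tested against these shares. The gene after RuBisCO, 62559, was at 7.35, 8.19 and 8.79 CPM in AG and at 70.4, 94.8 and 84.2 CPM in CG, with a log2 fold change of 3.35 (adjusted p = 2.14e-05, edgeR's quasi-likelihood test), while RuBisCO itself was not called. The gene before FBP, 32400, was at 18.4, 17.7 and 19.2 CPM in AG and at 36.3, 79.6 and 78.0 CPM in CG, and rose although FBP did not pass the test (log2 fold change 1.81, adjusted p = 0.00233). Both genes after and before aldolase, 54477 and 37977, fell, with log2 fold changes of -0.63 and -0.65, while aldolase rose. Other neighbours rose as their members did: the genes before and after TPI, the gene before GAPDH and the gene after PGK. The gene after FBP rose as well. The genes before RuBisCO, before PGK and after GAPDH did not pass the test. The neighbours given with values were chosen after the values were seen, and the sources used here give them no names.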
